A study of Mus musculus with 12 samples.

Results

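The comparison of DSP-0509 plus anti-PD-1 antibody against vehicle rested on 6 of the 12 CT26 tumors in the series, 3 from mice that received both agents (the combination group) and 3 from vehicle-treated mice. Its members were the endogenous panel genes that reached a value of 20 in 3 or more of the 12 tumors, 646 of 750. CT26 is an established mouse colon carcinoma line, implanted under the skin of wild-type Balb/c mice, 6 to 10 weeks old per the study's methods, that keep their own immune system. Mice entered a group once the tumor measured 130 to 170 mm3 per the labels, while the study's text gives a smaller volume. The combination group received DSP-0509, a small-molecule agonist of Toll-like receptor 7 (TLR7), intravenously at 5 mg/kg, and an antibody against PD-1 (clone RMP1-14) at 200 µg/mouse. The labels describe the control group only as vehicle and mention no isotype antibody. Each tumor came from a separate mouse, and RNA of the whole tumor was taken 4 days after dosing. The other 6 tumors, from mice given a single agent, entered the filter and the estimate of the spread. All tumors grew from a single cell line, so the values describe that line as a model.

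TLR7 sits in the endosome of plasmacytoid dendritic cells, B cells and some macrophages, where it binds single-stranded RNA and signals through MyD88, IRAK kinases and TRAF6 to NF-kB and to the interferon regulatory factor IRF7. IRF7 drives the type I interferon genes, and these interferons induce antiviral genes in surrounding cells. PD-1 is an inhibitory receptor of activated T cells whose ligand PD-L1 is carried by tumor and myeloid cells. T cells and NK cells release IFNγ, which acts through the factor IRF1 on antigen presentation, on chemokines that recruit further T cells, and on PD-L1 itself.

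Values are normalised counts of RNA molecules as deposited, and the 3 values given for a group are those of tumors 1, 2 and 3. Total counts, estimated from the steps of the values, ran from 856045 to 1022512 in the vehicle tumors and from 933613 to 1155698 in the combination tumors. Probes with no target gave a mean of 6.25 to 12.5 counts over the 12 tumors, so values of that size carry no information on a gene. Fold changes are on the scale of log2(value + 1), which understates the change of low genes. Each stands with its standard error from limma over all 12 tumors (±) and the Benjamini-Hochberg adjusted p, and genes with an adjusted p below 0.05 were called. Where leaving out 1 of the 12 tumors ended the call, the highest adjusted p over those 12 fits follows as "up to". In bulk tumor RNA, fewer cells of a type and less RNA per cell cannot be told apart.

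Of the 646 genes, 139 were called higher in the combination tumors and 3 lower, which is 22% of the genes tested, 21.5% higher and 0.464% lower. At an unadjusted p under 0.05 there were 244 genes. The 3 combination tumors lay above the 3 vehicle tumors in 249 genes (38.5%) and below them in 41 (6.35%), and 138 of the 139 genes called higher were among the 249. The share called higher, 21.5%, and the share lying above, 38.5%, are the background for the counts in each gene list. The median log2 fold change over all genes tested was 0.34, with quartiles at -0.03 and 0.89, and 461 genes (71.4%) had a fold change above 0. Of the genes called higher, 104 had a log2 fold change of at least 1, 40 of at least 1.5 and 6 of at least 2, and the smallest was 0.49 for H2-K1. The self-test on simulated tumors, in which every gene varied independently, recovered 44.2% of the genes changed 1.5-fold and 92.8% of those changed 3-fold. Small changes were thus often missed in the simulation, which leaves out the shared movement of genes within a tumor.

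**Figure D1:**
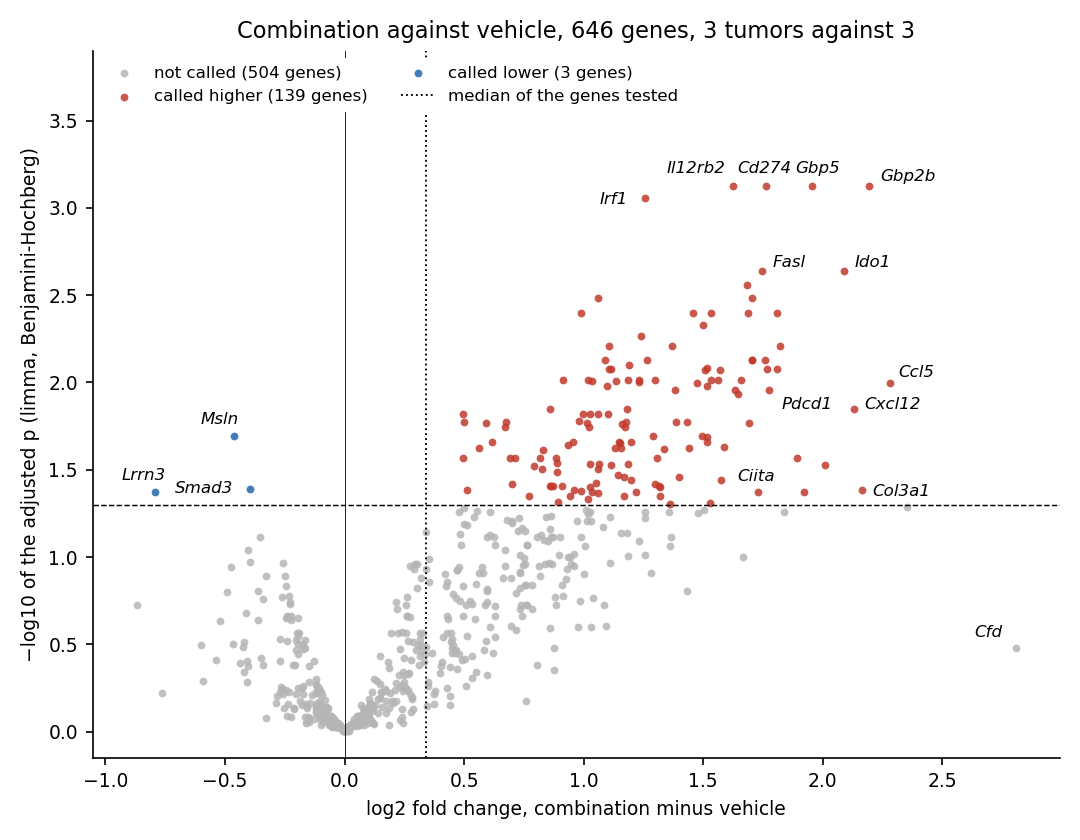
Log2 fold change of each of the 646 genes tested, combination minus vehicle (x axis), against the −log10 of its adjusted p from limma (y axis). The dashed line is an adjusted p of 0.05, and the dotted line the median log2 fold change of 0.34. The 139 genes called higher lie to the right with Gbp2b, Gbp5, Cd274 and Il12rb2 at the top, the 3 called lower lie to the left, and Cfd has the largest fold change without a call.

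The scaling of the tumors set how these counts split, so it is given before the genes. The 20 housekeeping genes of the panel had a median log2 fold change of -0.12, from -0.37 for Rpl19, which was called lower when they were tested with the other genes, to 0.17 for Nubp1. Rescaling each tumor to these genes gave 231 genes higher and 1 lower. With quantile normalization limma called 65 higher and 70 lower, and with each tumor centred on its median gene 63 higher and 136 lower. These settings moved the median fold change over the panel to 0.43, -0.13 and -0.19 (log2). Centring on the median gene sets the middle gene of each tumor to the same value by construction. Higher in all 4 scalings were 57 genes (8.82%), and 1 gene, Lrrn3, was lower in all 4.

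**Figure D2:**
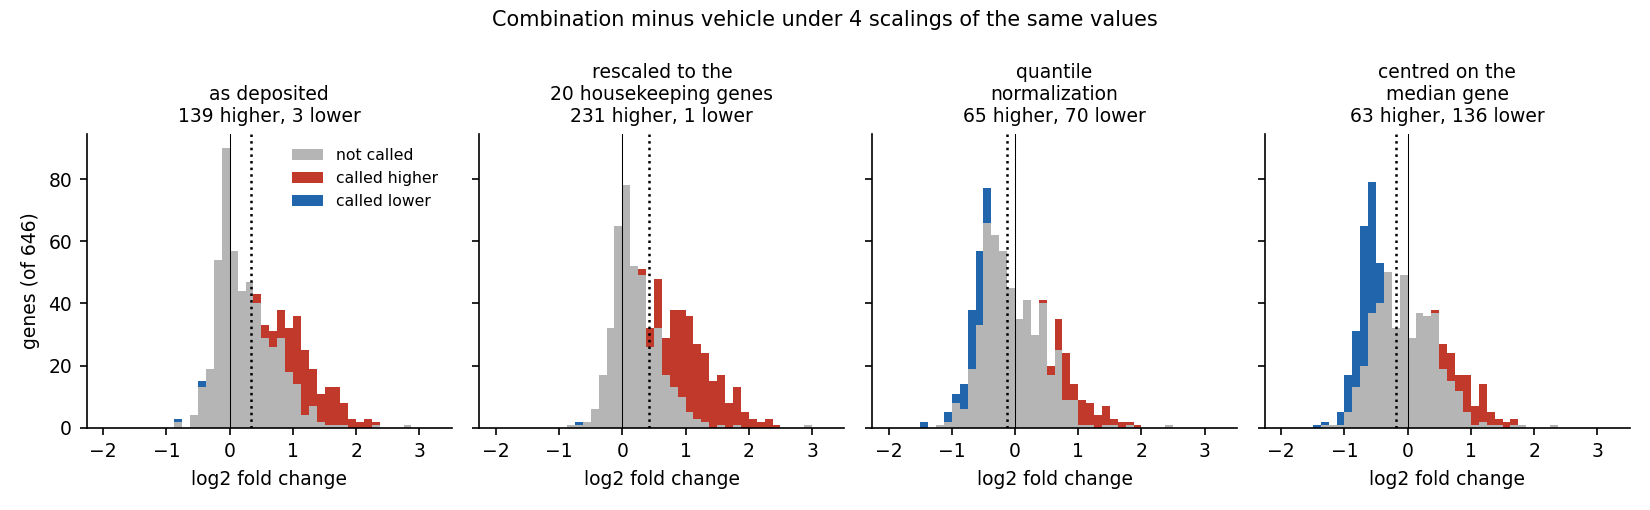
Histograms of the log2 fold change, combination minus vehicle, of the 646 genes under 4 scalings of the same values, with the number of genes on the y axis. Red are genes called higher, blue genes called lower, grey genes not called, and the dotted line is the median, which moves from 0.34 as deposited to 0.43, -0.13 and -0.19.

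Single tumors also weighed on the counts. Vehicle tumor 1 was the lowest of the 3 vehicle tumors in 116 of the 139 genes called higher, combination tumor 3 the highest of its group in 108, and combination tumor 1 the lowest of its group in 96. Over all genes tested, the median was lowest in tumor 1 and highest in tumor 3 of every group, the single-agent groups included. Without vehicle tumor 1 the count fell to 58 higher and 1 lower, of which 56 were among the 139, without combination tumor 3 to 61 higher and 0 lower, and without combination tumor 2 to 70 higher and 0 lower. All 139 kept a fold change above 0 in each of these 3 fits and in the other 9. For the 138 with groups apart this was fixed in advance, since leaving out 1 tumor cannot turn their sign. Leaving out a single-agent tumor changes no fold change at all, so the kept sign adds no support. With every tumor left out in turn, 51 of the 139 kept the call throughout, and 44 of those 51 were also higher in all 4 scalings.

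Genes listed here as induced by IFNγ were higher throughout their list, and which interferon acted on them was not tested. The list was chosen with earlier results of these data known. Genes of antigen presentation, on which IFNγ also acts, stand in other lists, and of 10 MHC class II genes 1 was called. All 14 members of that list were called higher, against 21.5% of the genes tested, with a median log2 fold change of 1.64 and a range from 0.89 to 2.2. Their mean log2 value stood 1.29, 1.63 and 1.85 above the vehicle mean in the 3 combination tumors, and at -0.24, 0.19 and 0.05 in the vehicle tumors. Ifng itself, the cytokine gene, read 12.5, 12.2 and 20.9 in vehicle and 30.6, 33.6 and 69.98 in the combination tumors (1.44 ± 0.38, adjusted p = 0.0236, up to 0.0925). The groups did not overlap, and combination tumor 3 was the highest, but the vehicle values lay close to those of the control probes. Gbp2b, a guanylate-binding protein gene of cell-autonomous defence, read 3369.9, 4246 and 3312 in vehicle and 13934, 18293 and 17863 in the combination tumors (2.2 ± 0.24, adjusted p = 7.45e-04). Gbp5, of the same family, read 403, 680.4 and 463 against 1653, 1927 and 2328 (1.95 ± 0.23, adjusted p = 7.45e-04), and Irgm2, an immunity-related GTPase gene, 208, 319.6 and 287 against 595, 767 and 949 (1.5 ± 0.25, adjusted p = 0.00467). For these 3 genes the lowest combination tumor lay well clear of the highest vehicle tumor.

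Ido1, whose enzyme breaks down tryptophan and thereby restrains T cells, read 24.9, 39.2 and 23.6 in vehicle and 86.6, 147 and 152 in the combination tumors (2.09 ± 0.29, adjusted p = 0.00229). Irf1, a transcription factor gene of the pathway, read 2217, 2457 and 2269.9 against 4985, 5713 and 5941 (1.26 ± 0.15, adjusted p = 8.78e-04), and its 3 combination tumors were close together. Socs1, a feedback inhibitor of JAK kinases, read 339, 446 and 377 against 656, 736 and 748 (0.89 ± 0.24, adjusted p = 0.0269, up to 0.104), and Icam1, an adhesion ligand for leukocytes, 144, 187 and 231 against 349, 425 and 467 (1.15 ± 0.3, adjusted p = 0.0222, up to 0.094). In these genes too all combination tumors lay above all vehicle tumors. The receptors and kinases upstream were not called. Among 4 interferon and receptor genes tested only Ifng was, the receptor chains had log2 fold changes of at most 0.22, and the type I interferon genes Ifna1, Ifna2, Ifna4 and Ifnb1 and the type III gene Ifnl2 did not reach the filter. Of 12 JAK-STAT genes 4 were called higher (33.3%, against 21.5% of all genes tested), Socs1 and Stat3 among them. The log2 fold changes of that list had a median of 0.37 and reached 1.46, and 1 member was higher in all 4 scalings. Stat3 read 1549.8, 1455 and 1527 against 1998, 2009 and 2402 (0.49 ± 0.11, adjusted p = 0.0152, up to 0.07), a rise that turned negative after centring on the median gene.

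The promoters printed here were picked because their letters hold the motifs through which interferons act, so they do not stand for the genes called higher. Of the 646 genes tested, 476 had a promoter in the RefSeq table (GRCm38.p6), 4 of them under another symbol, with windows of 300 bases from 250 before to 50 after the start. Each window was searched on both strands for TTCNNNGAA, the gamma-activated site of IFNγ-responsive genes, and for GAAA followed after any 2 bases (NN) by GAAA, the interferon-stimulated response element that IRF factors bind, and matches are in capitals. At least 1 of these motifs was in 11.3% of all 32851 promoters of the table, in 14.9% of the 376 promoters of genes not called and in 34 of the 99 promoters of genes called higher, counting 1 promoter a gene. It was in 7 of the 9 IFNγ-induced genes with a promoter and in 13 of the 20 type I interferon-induced genes with one. Over all 476 tested genes with a promoter the share was 18.9%. Of the 20 largest rises with groups apart, 12 had a promoter, and 3 of these held a motif. The list of MHC class I and its peptide supply had a motif in 3 of 12, and the T cell receptor complex list in 1 of 6. The motifs can overlap each other, and a match is a description of the letters and no measured binding.
Windows are printed 5′ to 3′ on the strand of the gene, Gbp2b at chr3:142594597-142594896, plus strand, Gbp5 at chr3:142496684-142496983, plus strand, Irgm2 at chr11:58214727-58215026, plus strand, Cxcl10 at chr5:92348840-92349139, minus strand, Irf1 at chr11:53769764-53770063, plus strand, and Isg15 at chr4:156200769-156201068, minus strand.
Gbp2b: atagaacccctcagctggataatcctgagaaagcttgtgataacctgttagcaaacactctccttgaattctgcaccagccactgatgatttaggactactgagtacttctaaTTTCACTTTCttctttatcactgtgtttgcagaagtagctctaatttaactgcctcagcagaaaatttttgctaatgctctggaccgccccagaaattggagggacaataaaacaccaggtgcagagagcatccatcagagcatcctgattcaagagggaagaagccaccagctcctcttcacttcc
Gbp5: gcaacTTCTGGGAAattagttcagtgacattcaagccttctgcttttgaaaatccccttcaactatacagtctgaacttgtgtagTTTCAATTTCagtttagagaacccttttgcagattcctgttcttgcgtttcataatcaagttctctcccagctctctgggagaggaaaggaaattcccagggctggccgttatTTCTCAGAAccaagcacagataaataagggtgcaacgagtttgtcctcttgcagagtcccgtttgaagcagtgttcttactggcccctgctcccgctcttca
Irgm2: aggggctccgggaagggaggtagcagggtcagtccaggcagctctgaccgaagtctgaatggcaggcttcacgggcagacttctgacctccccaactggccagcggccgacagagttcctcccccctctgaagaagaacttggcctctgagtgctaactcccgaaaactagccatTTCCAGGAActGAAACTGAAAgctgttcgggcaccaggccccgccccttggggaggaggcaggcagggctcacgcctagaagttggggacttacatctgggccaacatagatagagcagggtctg
Cxcl10: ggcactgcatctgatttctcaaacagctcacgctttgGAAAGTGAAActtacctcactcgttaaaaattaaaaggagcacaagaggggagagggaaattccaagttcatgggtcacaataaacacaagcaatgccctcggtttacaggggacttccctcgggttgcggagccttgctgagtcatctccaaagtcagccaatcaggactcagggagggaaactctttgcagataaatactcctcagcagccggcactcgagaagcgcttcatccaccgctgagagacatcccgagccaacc
Irf1: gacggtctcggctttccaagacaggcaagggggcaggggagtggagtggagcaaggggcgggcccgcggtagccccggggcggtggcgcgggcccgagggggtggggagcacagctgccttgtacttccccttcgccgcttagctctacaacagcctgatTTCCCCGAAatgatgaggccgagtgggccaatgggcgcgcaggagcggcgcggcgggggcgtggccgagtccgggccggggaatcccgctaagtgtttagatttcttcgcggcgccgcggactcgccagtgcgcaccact
Isg15: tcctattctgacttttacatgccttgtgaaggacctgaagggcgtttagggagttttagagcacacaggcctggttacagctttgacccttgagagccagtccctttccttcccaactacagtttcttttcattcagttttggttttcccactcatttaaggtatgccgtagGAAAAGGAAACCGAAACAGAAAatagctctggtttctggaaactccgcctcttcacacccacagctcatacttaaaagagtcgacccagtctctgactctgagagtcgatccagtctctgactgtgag
Gbp5 and Irgm2 hold both motifs, Irf1 only TTCNNNGAA, Gbp2b and Cxcl10 only the response element, on the other strand in Gbp2b, and in Isg15 the element matches at 3 overlapping positions. The promoters of Cd274, Col3a1, Cxcl12, Cxcl9, Pdcd1, Fasl and C3, which rose as well, hold neither in this window, which says only that these letters are not there.

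Antiviral genes known to be induced by type I interferon rose in part. Of 25 tested, 13 were called higher (52%, against 21.5% of all genes tested) and 0 lower. The 25 had a median log2 fold change of 0.82, and 4 were higher in all 4 scalings. Without vehicle tumor 1, combination tumor 2 or combination tumor 3 the count was 6 each time. Mx1 and Epsti1 did not reach the filter. The largest was Zbp1, a sensor of nucleic acids that can trigger cell death, which read 1059, 1673 and 1604 in vehicle and 3808, 4593 and 5389.6 in the combination tumors (1.68 ± 0.24, adjusted p = 0.00277). Ifit3 read 450.1, 767 and 731 against 1415, 1304 and 1774 (1.23 ± 0.25, adjusted p = 0.00966), and Oas3, a synthetase that activates RNase L, 81.1, 122 and 99.1 against 204, 216 and 268 (1.19 ± 0.23, adjusted p = 0.00794). Isg15, a ubiquitin-like protein gene whose promoter is printed above, read 449, 629.95 and 590.2 against 1035, 1145 and 1216 (1.03 ± 0.21, adjusted p = 0.00983). In these 4 genes vehicle tumor 1 was the lowest of the 6 tumors and the groups were apart. The low end of the list was at -0.03, held by 1 of the interferon-induced membrane protein genes, whose groups overlapped. Among the cytosolic sensors, Nod2 (1.06 ± 0.25, adjusted p = 0.0152, up to 0.0681), Nod1 (0.94 ± 0.24, adjusted p = 0.0229, up to 0.0946) and Mefv (1.51 ± 0.32, adjusted p = 0.0105), which encodes the inflammasome protein pyrin, were called higher along with Casp1 (0.79 ± 0.22, adjusted p = 0.0301, up to 0.122).

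The receptor that DSP-0509 binds was not called. Tlr7 read 70.7, 147 and 149 in vehicle and 137, 214 and 189 in the combination tumors (0.61 ± 0.36, adjusted p = 0.252). Combination tumor 1 lay within the vehicle range. Tlr8, the closest relative of Tlr7, was the single called member of 13 Toll-like receptor genes and their accessory proteins, at 176, 231 and 326 against 387, 473 and 617 (1.03 ± 0.31, adjusted p = 0.0399, up to 0.147), and the list had a median log2 fold change of 0.46. Cd14, a co-receptor of TLR4, read 1043, 967 and 914 against 809, 877 and 639 (log2 fold change -0.34, adjusted p = 0.173). Of 18 adaptor and kinase genes of the pathway 1 was called, the kinase gene Irak2, at 251, 264 and 283 against 482, 494 and 617 (0.99 ± 0.16, adjusted p = 0.00398), and the median of that list was -0.03. None of 14 NF-kB subunits and inhibitors was called (median 0.04), with Rela at 658, 647 and 597 against 584, 574 and 599.98 (log2 fold change -0.11, adjusted p = 0.558). Among 7 interferon regulatory factors Irf1 and Irf7 were called (28.6%, against 21.5% of all genes tested called higher). Rescaling to the housekeeping genes gave 6 of the 7 higher, while quantile normalization and centring each gave 1 higher and 1 lower. Irf7, the factor that TLR7 signals through, read 813, 1566 and 1702 against 2256, 2721 and 2928 (1.02 ± 0.32, adjusted p = 0.0466, up to 0.162), and quantile normalization and centring each left it without a call. Over the adaptor, kinase and NF-kB lists together, Irak2 was thus the single call on the values as deposited. Rescaled to the housekeeping genes, 4 adaptor and kinase genes and 0 NF-kB genes were higher. Quantile normalization gave 0 higher in these lists, with 7 and 3 lower. Centring gave 0 higher, with 8 and 6 lower. The Toll-like receptor list also had 0 higher under quantile normalization and centring, so Tlr8 and Irak2 lost their calls there.

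**Figure D3:**
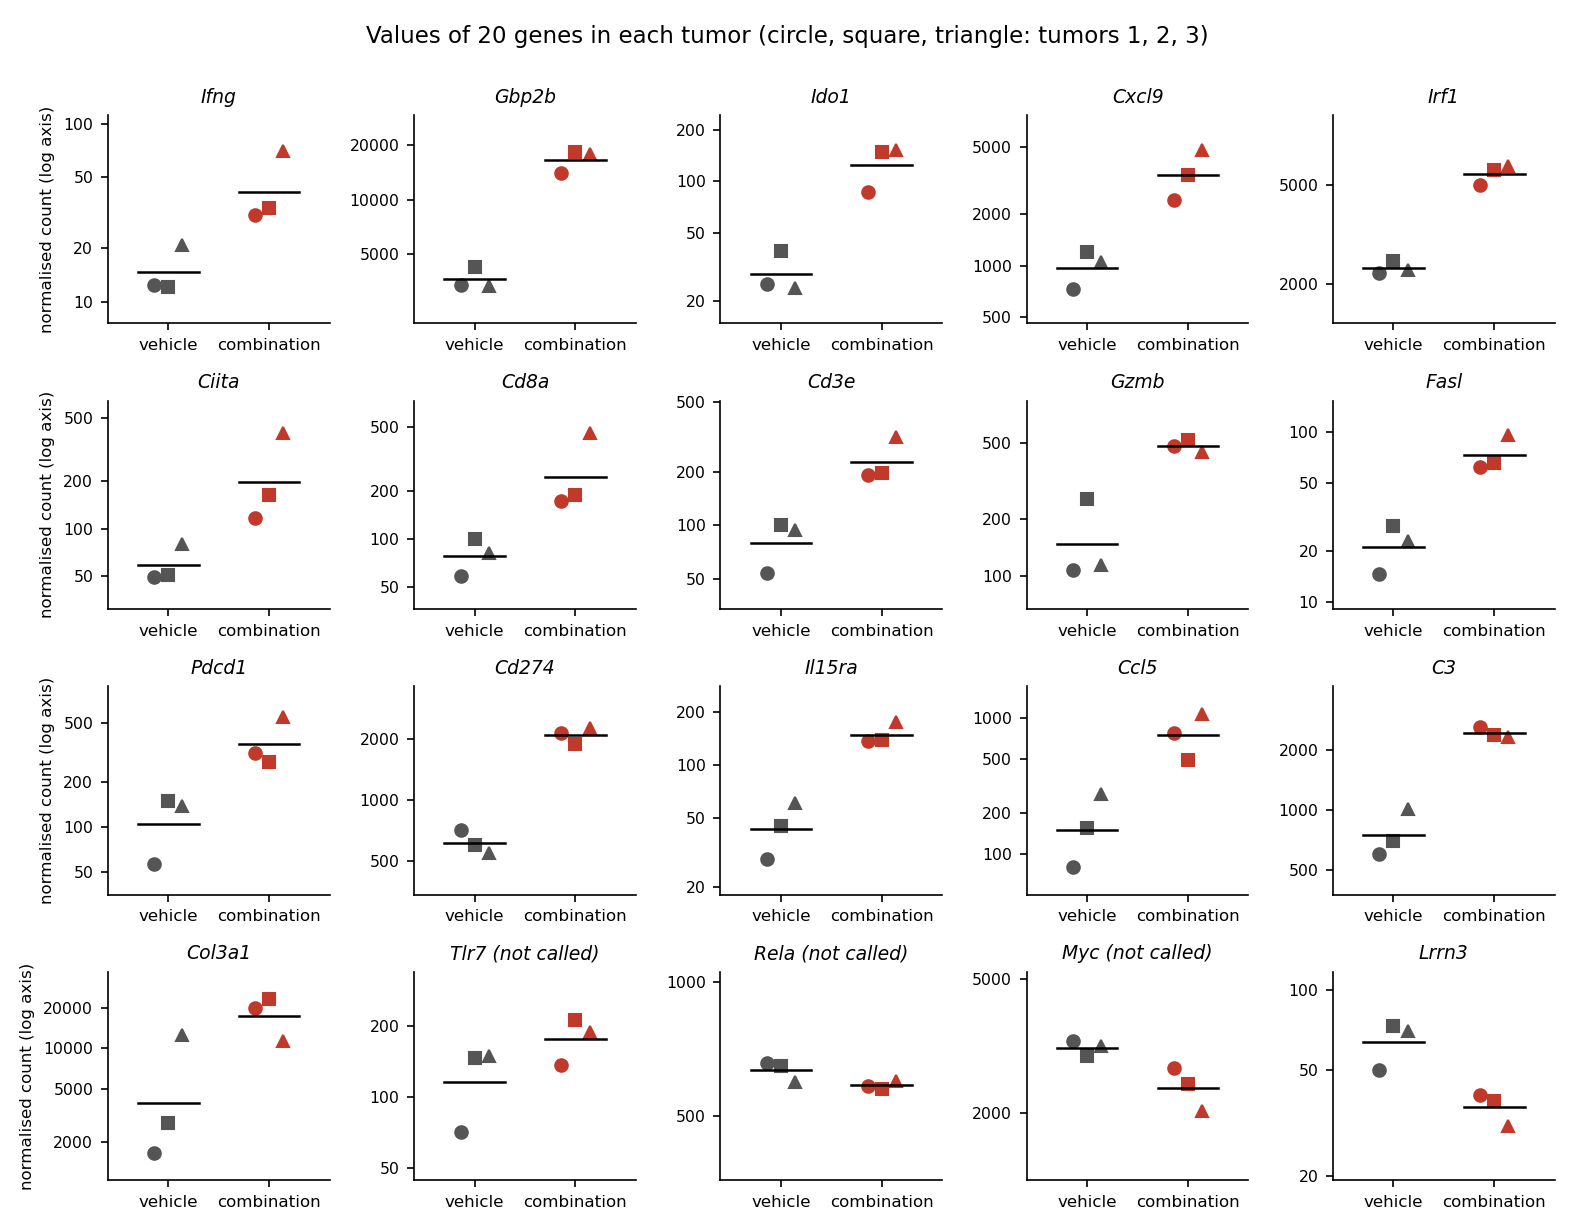
Normalised counts (y axis, logarithmic) of 20 genes in the 3 vehicle tumors (grey) and the 3 combination tumors (red), with circle, square and triangle for tumors 1, 2 and 3, and a bar at the mean of the log2 values of each group. The groups are apart in the interferon, T cell and checkpoint genes, overlap in Col3a1, Tlr7 and Rela, and lie the other way round in Myc and Lrrn3.

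On the values as deposited, genes of antigen presentation on MHC class I were called in most of their list. Of 16 tested, 11 were called higher and 0 lower, against 21.5% of all genes tested called higher, with a median log2 fold change of 1.0. Quantile normalization left 6 called higher and centring on the median gene 5, and 5 were higher in all 4 scalings. The count was 5 without vehicle tumor 1, 6 without combination tumor 2 and 5 without combination tumor 3. The genes that supply peptides had similar folds. Tap1, a chain of the peptide transporter, read 1469.8, 1989 and 1726 in vehicle and 3107, 3564 and 4150.4 in the combination tumors (1.06 ± 0.16, adjusted p = 0.00329). Psmb9, an immunoproteasome subunit, read 942, 1407 and 1287 against 2154, 2580.02 and 3059 (1.11 ± 0.21, adjusted p = 0.00837), and Tapbp, which loads peptides, 919, 1659 and 1455 against 2352, 2877 and 3205 (1.1 ± 0.23, adjusted p = 0.0105). Nlrc5, the activator of class I genes, read 629, 918 and 838 against 1519, 1619 and 1960.4 (1.1 ± 0.2, adjusted p = 0.00616). All 4 lacked overlap between the groups. Of the class I molecules, the non-classical H2-T23, a ligand of NK receptors, read 2072, 3062 and 3289 against 5567, 6363 and 7776 (1.24 ± 0.21, adjusted p = 0.00543). The classical H2-K1 was already at 4653, 5714 and 5155 in vehicle and read 6478, 7271 and 8139 in the combination tumors (0.49 ± 0.13, adjusted p = 0.0269, up to 0.111), and H2-D1 had a log2 fold change of 0.29 (adjusted p = 0.117) with all 3 combination tumors above vehicle. The fold change of H2-K1 was negative after centring on the median gene. Class I genes share sequence, so a probe may also count a close relative.

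MHC class II genes had the same median log2 fold change, 0.99, but only Ciita, their master activator, was called among 10. Ciita read 49.9, 51.4 and 80.03 in vehicle and 117, 164 and 402 in the combination tumors (1.73 ± 0.53, adjusted p = 0.0423, up to 0.158). H2-Eb1, a class II chain, read 1379, 1501 and 2067 against 2366, 2841 and 7078 (1.16 ± 0.42, adjusted p = 0.073), and Cd74, the invariant chain that guards the class II groove, 11642, 10883 and 15417 against 16793, 20747 and 43765 (0.99 ± 0.37, adjusted p = 0.0765). All 3 combination tumors lay above all 3 vehicle tumors in 7 of the 10, against 38.5% of all genes tested. The share called higher, 10%, was below the 21.5% of all genes tested. In the 3 genes named combination tumor 3 stood far above tumors 1 and 2. The mean log2 value of the list stood 0.35, 0.71 and 1.52 above the vehicle mean in combination tumors 1, 2 and 3.

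Part of the T cell genes rose, among them the CD3 chains and CD8. Of 12 genes of the T cell receptor complex and co-receptors 7 were called higher (58.3%, against 21.5% of all genes tested) and 0 lower. The 12 had a median log2 fold change of 1.33, and 6 held in all 4 scalings. Cd8a read 58.2, 100.01 and 81.8 in vehicle and 171, 186 and 455 in the combination tumors (1.63 ± 0.35, adjusted p = 0.011). Its partner chain Cd8b1 read 11.4, 27.1 and 22.7 against 53.8, 43.8 and 105 (1.66 ± 0.34, adjusted p = 0.0097). Cd3e, a signalling chain of the receptor, read 54.05, 100.01 and 94.6 against 193, 197 and 316 (1.51 ± 0.3, adjusted p = 0.00844). In each, combination tumor 3 stood well above tumors 1 and 2, and vehicle tumor 1 was the lowest. Cd3g (1.57 ± 0.31, adjusted p = 0.00844), Cd3d (1.38 ± 0.3, adjusted p = 0.011) and Cd247 (1.48 ± 0.31, adjusted p = 0.0101), the other signalling chains, rose by similar amounts. Cd4, the co-receptor of helper T cells, read 27.03, 29.9 and 35.5 against 39.1, 48.5 and 76.5 and was not called (0.76 ± 0.4, adjusted p = 0.189). Whether the change of Cd8a differed from that of Cd4 was not tested. Ptprc, which encodes the leukocyte marker CD45, read 444, 657 and 916 against 1034, 1259 and 1755 (1.03 ± 0.36, adjusted p = 0.0622), with the groups apart. Of 19 pan-leukocyte genes 4 were called higher (21.1%), a share near the 21.5% of all genes tested. The summed value of the 19 was 9184 to 13969 in the vehicle tumors and 15579 to 20799 in the combination tumors, with no member at 0. The part of leukocyte number in the changes of single T cell, interferon-induced and myeloid genes was not tested.

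Of 13 genes of T cell receptor signalling 6 were called higher (46.2%, against 21.5% of all genes tested). Lck, the kinase that starts the signal, read 74.8, 187 and 156 against 245, 269 and 423 (1.22 ± 0.38, adjusted p = 0.0424, up to 0.158). Zap70, which docks on the CD3 chains, read 29.1, 69.2 and 58.2 against 87.6, 89.5 and 176 (1.17 ± 0.37, adjusted p = 0.0446, up to 0.168). None of the 13 was higher in all 4 scalings. The count was 0 without vehicle tumor 1, combination tumor 2 or combination tumor 3, 1 without DSP-0509 tumor 2 or 3 or anti-PD-1 tumor 2, and 3 without anti-PD-1 tumor 3. The lowest members, down to -0.23, were early response genes of the Egr family, which were not called. Of 13 T cell transcription factors Tbx21, the T-bet gene of cytotoxic and type 1 helper T cells, was called at 17.7, 24.3 and 17.3 against 31.7, 44.8 and 57.9 (1.12 ± 0.31, adjusted p = 0.0297, up to 0.119), and Ikzf2, the Helios gene, at 32.2, 55.1 and 78.2 against 117, 106 and 124 (1.14 ± 0.33, adjusted p = 0.0337, up to 0.117). The 2 calls were 15.4% of the 13, below the 21.5% of all genes tested called higher. Foxp3, the factor of regulatory T cells, read 9.36, 16.8 and 11.8 against 19.00, 19.6 and 37.3 (0.91 ± 0.45, adjusted p = 0.167), apart but not called.

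Cytotoxic effector genes had the second highest median of the 43 lists, 1.53. Of 7 tested, 4 were called (57.1%, against 21.5% of all genes tested called higher), all 4 in every scaling. Gzmb, whose granzyme cleaves caspases in target cells, read 108, 255 and 115 in vehicle and 478, 518 and 447 in the combination tumors (1.7 ± 0.32, adjusted p = 0.00741). Gzmk, of a related granzyme, read 22.9, 25.2 and 14.6 against 77.1, 54.1 and 74.7 (1.69 ± 0.27, adjusted p = 0.00398), and Prf1, the pore-forming perforin, 153, 275 and 153 against 529.96, 487 and 607 (1.53 ± 0.24, adjusted p = 0.00398). Vehicle tumor 2 was the highest vehicle tumor for Gzmb and still lay below all combination tumors. Fasl, the death ligand of cytotoxic cells, read 14.6, 28.04 and 22.7 against 62.3, 65.3 and 95.2 (1.74 ± 0.24, adjusted p = 0.00229), and its receptor gene Fas 81.1, 112 and 109 against 207, 209 and 236 (1.11 ± 0.22, adjusted p = 0.00837). Tnfsf10, the gene of the death ligand TRAIL, read 51.97, 129 and 106 against 219, 228 and 342 (1.51 ± 0.39, adjusted p = 0.022, up to 0.0913). Of 14 genes of death receptors, ligands and caspases these 3 and Casp1 were called (28.6%, against 21.5% of all genes tested). The list had a median of 0.11, below that of all genes. The 3 effectors not called were Gzma (1.36 ± 0.53, adjusted p = 0.0864) and 2 genes of smaller fold.

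The gene of the antibody's target and those of both its ligands rose. Pdcd1, which encodes PD-1, read 56.1, 149.5 and 137 in vehicle and 316, 272 and 551 in the combination tumors (1.78 ± 0.38, adjusted p = 0.0111). Cd274, which encodes PD-L1, read 714, 602 and 550.2 against 2153, 1897 and 2271 (1.76 ± 0.19, adjusted p = 7.45e-04), and its 3 combination tumors lay close together. Pdcd1lg2, which encodes the other ligand PD-L2, read 42.6, 47.7 and 26.4 against 103, 78.3 and 156 (1.49 ± 0.37, adjusted p = 0.0202, up to 0.0857). In all 3 genes the groups were apart. Among the other inhibitory receptors Lag3, which binds MHC class II, read 48.9, 80.4 and 66.4 against 138, 147 and 319 (1.53 ± 0.31, adjusted p = 0.00966) and Ctla4, which competes for CD80 and CD86, 49.9, 49.5 and 60.02 against 135, 81.1 and 147 (1.13 ± 0.24, adjusted p = 0.00983). Havcr2, the TIM-3 gene, did not reach the filter. Inhibitory receptors were called in 3 of 8 (37.5%), with fold changes down to 0.12, and inhibitory ligands and enzymes in 4 of 12 (33.3%), against 21.5% of all genes tested. Entpd1, the ectoenzyme CD39, was the last of these (1.16 ± 0.28, adjusted p = 0.0173, up to 0.0755), and the list reached down to -0.19.

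Co-stimulatory genes were divided. Of 18 tested, 6 were called higher (33.3%, against 21.5% of all genes tested), with a median log2 fold change of 0.47. Slamf7, a receptor of NK cells, cytotoxic T cells and plasma cells, read 35.3, 52.3 and 54.6 in vehicle and 134, 142 and 239 in the combination tumors (1.81 ± 0.28, adjusted p = 0.00398). Icos, induced on activated T cells, read 49.9, 69.2 and 70.02 against 153, 105 and 302 (1.43 ± 0.34, adjusted p = 0.0169, up to 0.0696), and Tnfrsf18, the GITR gene, 10.4, 21.5 and 15.5 against 28.5, 41.96 and 47.6 (1.29 ± 0.32, adjusted p = 0.0202, up to 0.0849). Slamf7 alone of the 6 was called in every scaling and with any tumor left out, and without vehicle tumor 1 the list had a single call, against 3 without combination tumor 2 and 2 without combination tumor 3. The list reached down to -0.18.

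Several receptors of lymphocyte growth cytokines rose. Of 9 genes of the common gamma chain family 6 were called higher (66.7%, against 21.5% of all genes tested), with a median of 1.15. Without vehicle tumor 1 or combination tumor 3 there were 2 calls. Il15ra, which presents IL-15 to neighbouring cells, read 29.1, 44.9 and 60.9 in vehicle and 136, 138 and 175 in the combination tumors (1.77 ± 0.34, adjusted p = 0.00837). Il2rb, the chain that IL-2 and IL-15 receptors share, read 256, 704 and 582 against 1126, 1261 and 2009.9 (1.59 ± 0.41, adjusted p = 0.0234, up to 0.0929), and Il7r 58.2, 68.2 and 74.6 against 210.1, 131 and 191 (1.37 ± 0.24, adjusted p = 0.00616). The cytokine gene Il15 itself read 138, 159 and 133 against 191, 218 and 255 (0.62 ± 0.16, adjusted p = 0.022, up to 0.0913). Il7 went the other way, at 220.4, 236 and 176 against 165, 156 and 167 with all combination tumors below vehicle, and was not called (-0.36 ± 0.17, adjusted p = 0.157), while Il2, Il4, Il9 and Il21 did not reach the filter. In the IL-12 and IL-18 families 4 of 7 were called (57.1%). Il12rb2, the signalling chain of the IL-12 receptor, read 23.9, 21.5 and 22.7 against 63.3, 74.6 and 79.3 (1.63 ± 0.18, adjusted p = 7.45e-04). Il18r1 read 53.01, 101 and 125 against 171, 189 and 339.6 (1.34 ± 0.35, adjusted p = 0.0242, up to 0.0957). Il12a, Il23a, Il27 and Il23r did not reach the filter.

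Ccl5, which draws T cells and monocytes, had the largest rise of all genes called, at 81.1, 155 and 276 in vehicle and 777, 492 and 1059.99 in the combination tumors (2.28 ± 0.48, adjusted p = 0.0101). The 3 ligands of CXCR3 rose as well. Cxcl9 read 733, 1199 and 1046 against 2436, 3388 and 4793 (1.81 ± 0.35, adjusted p = 0.00837), Cxcl10 528, 935 and 805 against 1721, 2421 and 2458 (1.56 ± 0.32, adjusted p = 0.00966), and Cxcl11 129, 168 and 146 against 391, 681 and 537 (1.82 ± 0.32, adjusted p = 0.00616). All 4 chemokines were apart between groups, held in every scaling and kept the call with any tumor left out. Their receptor Cxcr3 read 22.9, 43.9 and 66.4 against 61.2, 79.3 and 77.5 and was not called (0.81 ± 0.34, adjusted p = 0.113), whereas Cxcr6, a receptor of tissue-resident T cells, read 76.9, 176 and 147 against 302, 292 and 774 (1.69 ± 0.41, adjusted p = 0.017, up to 0.0696). The fractalkine receptor gene Cx3cr1 had the lowest fold change of these 14 genes (-0.54 ± 0.42, adjusted p = 0.388). Of the chemokines that attract monocytes and their receptors, Ccl8 was the 1 gene called among 8, at 787, 3269 and 5387 against 8744, 10172 and 8483 (1.92 ± 0.59, adjusted p = 0.0423, up to 0.112), and Ccl12 read 1247, 2701 and 2382 against 1614, 1758 and 1142 (log2 fold change -0.44, adjusted p = 0.405). For Ccl8 the combination tumors lay close together and the vehicle tumors spread widely, with vehicle tumor 1 far below the other 2.

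**Figure D4:**
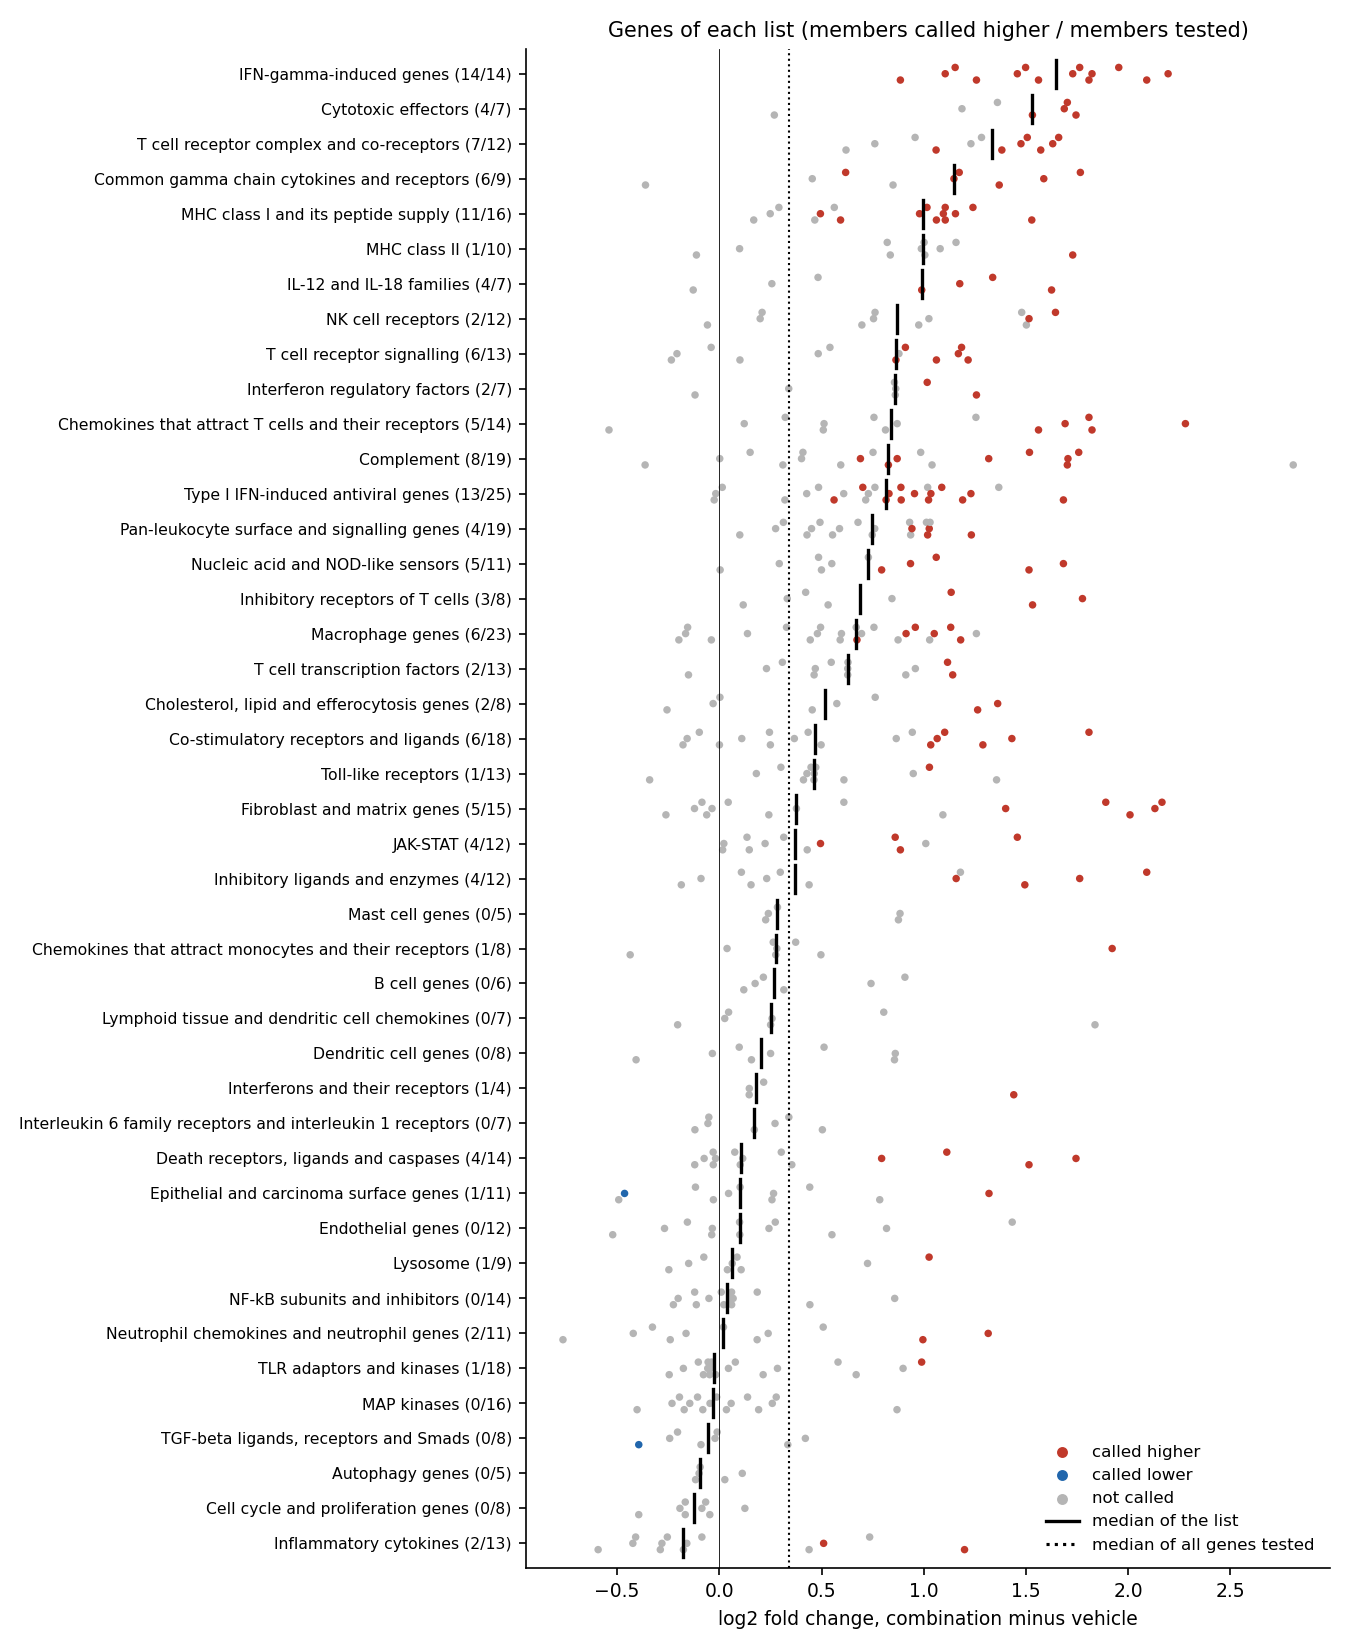
Log2 fold change, combination minus vehicle (x axis), of every gene tested in each of the 43 gene lists (y axis, with the number called higher over the number tested), ordered by list median. Red points are called higher, blue called lower and grey not called, black bars are list medians, and the dotted line is the median of all genes tested, 0.34, which IFN-γ-induced genes exceed most (1.64) and inflammatory cytokines lie below most (-0.18).

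Among NK cell receptor genes, 2 of 12 tested were called, Klrc1, an NKG2 receptor that also marks activated CD8 T cells, at 154, 372 and 312 against 642, 744 and 1151 (1.64 ± 0.36, adjusted p = 0.0116, up to 0.0514), and its partner Klrd1, the CD94 gene, at 181, 434 and 370.1 against 655, 755 and 1380.05 (1.51 ± 0.38, adjusted p = 0.0206, up to 0.0854). These 2 were 16.7% of the list, below the 21.5% of all genes tested called higher. Ncr1, the marker most restricted to NK cells, read 53.01, 208 and 195 against 178, 284 and 328 and overlapped between groups (0.98 ± 0.58, adjusted p = 0.252). Klrb1c, another NK marker, stayed near the control probes at 11.4, 9.35 and 4.55 against 6.33, 6.53 and 13.1 and was not tested. B cell genes had 0 of 6 called, and the defining markers Ms4a1 and Cd79a read at most 19.6 in any of the 6 tumors and were not tested. Of 8 dendritic cell genes 0 were called, with a median of 0.2. Of the 5 mast cell genes 0 were called. The chymase gene Cma1 read 68.6, 588 and 246 against 268, 371 and 625 (0.88 ± 0.76, adjusted p = 0.441) and the tryptase gene Tpsab1 336, 1500.1 and 471 against 594, 561 and 1173 (0.24 ± 0.62, adjusted p = 0.827). The list ran from 0.23 to 0.88. The groups overlapped in all 5, and vehicle tumor 2 was the highest vehicle tumor for Cma1 and Tpsab1.

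Macrophage genes were called in 6 of 23, a share near that of all genes, with a median log2 fold change of 0.67. The count was 1 without vehicle tumor 1, 3 without vehicle tumor 2 and 2 without combination tumor 2 or 3. Slc11a1, a metal transporter of phagosomes, read 91.5, 96.3 and 126 in vehicle and 176, 233 and 318 in the combination tumors (1.18 ± 0.27, adjusted p = 0.0142, up to 0.0581), and Fcgr4, an activating Fc receptor, 891, 1013 and 1122 against 1711, 2106 and 2962 (1.13 ± 0.3, adjusted p = 0.0236, up to 0.0961). Chil3, a chitinase-like protein gene of alternatively activated macrophages, read 19.8, 23.4 and 19.1 against 74.95, 40.1 and 27.99 (1.05 ± 0.31, adjusted p = 0.0378, up to 0.111). The general marker Cd68 read 1279, 1487 and 1802 against 2229.6, 2568 and 2428 (0.67 ± 0.16, adjusted p = 0.0169, up to 0.0698), while Emr1, the F4/80 gene, read 549.9, 1106 and 1573 against 1239, 1556 and 2111, overlapping and not called (adjusted p = 0.249). The lowest 2 of the list were Mfge8 (-0.2 ± 0.12, adjusted p = 0.274) and Axl (-0.16 ± 0.11, adjusted p = 0.299), of apoptotic cell uptake. In the neutrophil list Fpr2 (1.32 ± 0.39, adjusted p = 0.0392, up to 0.135) and Csf3r (1.0 ± 0.23, adjusted p = 0.0151, up to 0.0672) were 2 called of 11. These 2 were 18.2% of the list, below the 21.5% of all genes tested called higher. Csf3r read 119.5, 122 and 188 against 293, 221 and 341. S100a8 read 811, 600.04 and 587 against 1122, 368 and 492 and Cxcl1 1335, 493 and 290.1 against 729, 203 and 261, both highest in a tumor numbered 1 of their group and not called (adjusted p = 0.895 and 0.602).

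Complement genes were called higher in 8 of 19 (42.1%, against 21.5% of all genes tested), with a median log2 fold change of 0.83. C3, the central component, read 599, 694 and 1009 in vehicle and 2627, 2395 and 2319.7 in the combination tumors (1.71 ± 0.26, adjusted p = 0.00329). C4b, of the classical pathway, read 416, 686 and 1105 against 1795, 2362 and 2571 (1.7 ± 0.31, adjusted p = 0.00741), and Serping1, the inhibitor of C1, 383, 903 and 918 against 2129, 2311 and 2499.8 (1.76 ± 0.33, adjusted p = 0.00741). C2, which forms the C3 convertase with C4b, read 50.9, 69.2 and 117 against 202, 214 and 230.5 (1.52 ± 0.29, adjusted p = 0.00822). These 4 held in every scaling and with any tumor left out, while the count over the list became 4 without vehicle tumor 1 or combination tumor 2 and 5 without combination tumor 1 or 3. Cfd, the adipsin gene, had the largest fold change of the 646 without a call, with values of 18.7, 18.7 and 309 in vehicle and 47.5, 2244 and 378 in the combination tumors (2.81 ± 1.96, adjusted p = 0.33). Without combination tumor 2, the highest of the 6, its log2 fold change was 1.46, and tumor 1 lay below vehicle tumor 3. C8b was called (0.83 ± 0.23, adjusted p = 0.0314, up to 0.102) but would not have passed the filter without the combination tumors, at 11.4, 12.2 and 11.8 against 29.6, 20.5 and 16.8, so its call is no independent sign. In all, 13 genes would not have passed the filter without the combination tumors, and C8b and Lta were the 2 of them called.

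Of the collagen and fibroblast genes 5 rose, and these were also high in vehicle tumor 3. Col3a1 read 1665, 2774 and 12669.8 in vehicle and 20000.3, 23189 and 11395 in the combination tumors (2.17 ± 0.66, adjusted p = 0.0413, up to 0.147). It was the only gene called higher whose groups overlapped, because vehicle tumor 3 lay above combination tumor 3. Col1a1 read 1167, 2104 and 5242 against 11877, 9204 and 6006 (1.89 ± 0.51, adjusted p = 0.0269, up to 0.104), and Fap, of activated fibroblasts, 30.1, 49.5 and 83.7 against 131, 171 and 107 (1.4 ± 0.41, adjusted p = 0.035, up to 0.127). Cxcl12, the stromal ligand of CXCR4, read 317, 246 and 1031 against 2387, 1847 and 1541 (2.13 ± 0.48, adjusted p = 0.0142, up to 0.059), and the eotaxin gene Ccl11 41.6, 64.5 and 254 against 368, 405 and 308 (2.01 ± 0.56, adjusted p = 0.0297, up to 0.111). Vehicle tumor 3 was the highest vehicle tumor in these 5 genes. Other fibroblast genes were not called, with Pdgfrb at 219, 263 and 276 against 209, 233 and 253 (log2 fold change -0.12, adjusted p = 0.78) and Vim at -0.26 (adjusted p = 0.169), all 3 combination tumors below vehicle. The list as a whole had 5 of 15 called (33.3%, against 21.5% of all genes tested called higher). Its median was 0.38, near that of all genes. The count was 1 without vehicle tumor 1 or 2 or combination tumor 1 or 2, and 2 without combination tumor 3. Endothelial genes had 0 of 12 called, with Cdh5 at 516, 339 and 469 against 425, 377 and 293 (log2 fold change -0.27, adjusted p = 0.596) and Angpt2 at -0.52 (adjusted p = 0.231).

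Of the epithelial and carcinoma genes, Epcam read 40.5, 28.97 and 32.7 against 17.9, 107 and 50.4 and Cdh1, the E-cadherin gene, 29.1, 40.2 and 40.01 against 47.5, 75.5 and 69.05, so these epithelial markers were low in all 6 tumors of this carcinoma line (adjusted p = 0.701 and 0.199). Egfr was called higher, at 20.8, 38.3 and 68.2 against 92.9, 129 and 74.7 (1.32 ± 0.4, adjusted p = 0.0399, up to 0.133). Msln, which encodes the surface protein mesothelin, was 1 of the 3 genes called lower, at 2549.8, 2510.4 and 2533 in vehicle and 1969, 1833 and 1713 in the combination tumors (-0.46 ± 0.12, adjusted p = 0.0203, up to 0.0874). Smad3, which carries TGF-β signals to the nucleus, read 971, 1008 and 944 against 723, 766 and 735 (-0.39 ± 0.12, adjusted p = 0.0409, up to 0.119). Lrrn3, a leucine-rich repeat protein gene, read 49.9, 72.9 and 70.02 against 40.1, 38.2 and 30.8 (-0.79 ± 0.25, adjusted p = 0.0424, up to 0.151). In all 3 the 3 combination tumors lay below the 3 vehicle tumors, and none kept its call with every tumor left out. Cd9, a tetraspanin, was also below vehicle in every combination tumor and was not called (-0.49 ± 0.24, adjusted p = 0.158).

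Lists of cell growth and general signalling held few called genes. For 8 cell cycle genes the median log2 fold change was -0.13, and the lowest was Myc, the growth factor-induced transcription factor, at 3269, 2939 and 3162 against 2715, 2436 and 2024 (-0.39 ± 0.16, adjusted p = 0.107), with all combination tumors below vehicle. Cdk1, the kinase of mitosis, overlapped between groups (-0.19 ± 0.21, adjusted p = 0.561). For 16 MAP kinase genes the median was -0.03, with Jun (-0.4 ± 0.33, adjusted p = 0.419) at the low end, and for 8 genes of TGF-β signalling -0.06, where Smad3 was the 1 call. The 5 autophagy genes, all of the Atg family, lay between -0.12 and 0.11. Inflammatory cytokines had the lowest median of all lists, -0.18, with 2 of 13 called (15.4%, below the 21.5% of all genes tested called higher). These were the lymphotoxin genes Ltb (1.2 ± 0.35, adjusted p = 0.0362, up to 0.138) and Lta (0.51 ± 0.16, adjusted p = 0.0413, up to 0.143), the latter among those that would not have passed the filter without the combination tumors. Tnf, a main product of TLR signalling, read 54.05, 87.9 and 60.9 against 82.3, 98.8 and 167 and overlapped between groups (0.74 ± 0.29, adjusted p = 0.0978).

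**Figure D5:**
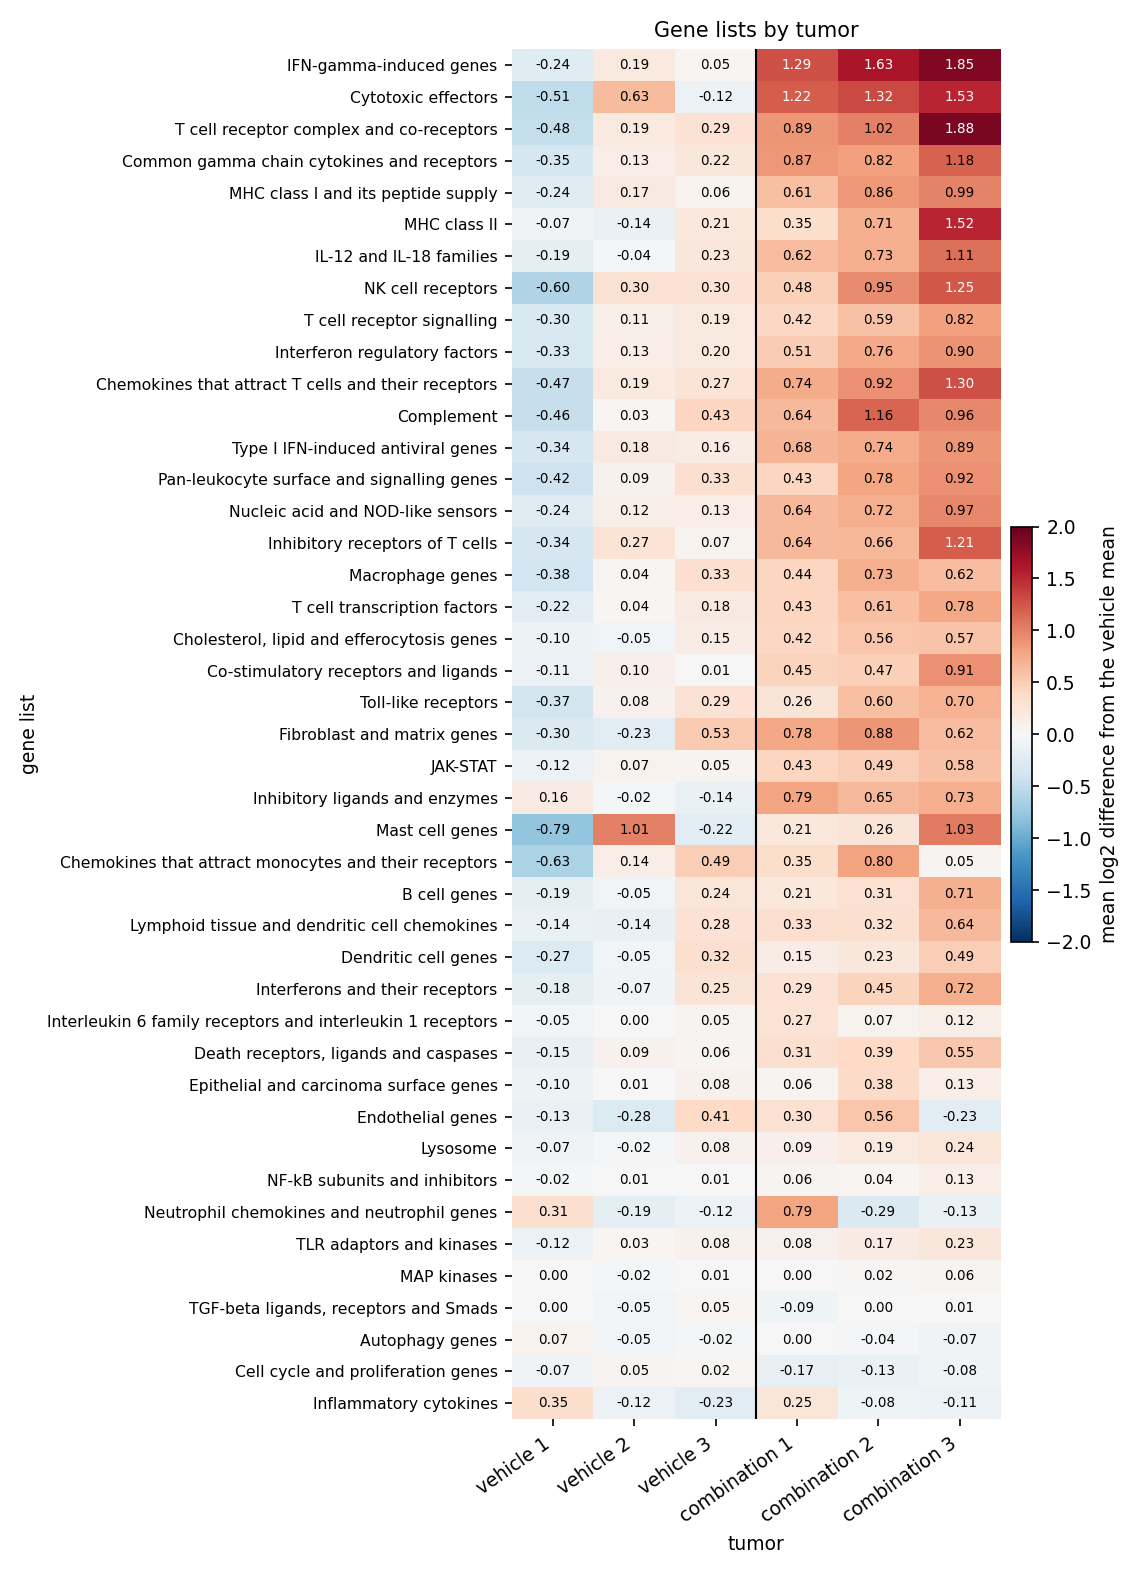
Mean log2 value of the tested members of each of the 43 gene lists (rows, ordered as by median fold change) in the 3 vehicle and 3 combination tumors (columns), minus the mean of the vehicle tumors. Red is above and blue below the vehicle mean, vehicle tumor 1 is below it in most immune lists, and combination tumor 3 carries the highest values in T cell receptor (1.88) and MHC class II genes (1.52).

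The tumors that received 1 agent give the setting for the largest rises, and each comparison uses the same 3 vehicle tumors. Gbp2b read 14750.4, 9399 and 7542 with DSP-0509 alone and 7558, 9648 and 9721 with the antibody alone, all of them above the vehicle tumors, and DSP-0509 tumor 1 within the range of the combination tumors. Ido1 read 116, 82.9 and 142 with DSP-0509 and 69.5, 77.3 and 94.4 with the antibody. Cd8a read 131, 183 and 163 and 126, 172 and 172, and Pdcd1 225, 244 and 333 and 159, 222 and 239. For Ccl5 the values were 416, 292 and 253 and 163, 279 and 427, and for Col3a1 10173, 10978 and 7355 and 4139, 10582 and 10654. Differences between the combination and either single agent were not tested here.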

How the data were processed

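CT26 tumors were measured on an nCounter panel of mouse immune genes (PanCancer Immune Profiling), which counts single RNA molecules with barcoded probes and without amplification. The authors normalized the counts in nSolver 4.0 and deposited the result, a signal in which 1 factor per tumor multiplies every gene's count and no background is taken off. The choice of that factor is not given in the sources used here. Dividing each tumor's gene values by a step estimated from its low values gave whole numbers within 0.1 for all genes and estimated total counts of 750416 to 1155698 per tumor. The 14 control probes in the same columns are unscaled, so the recovery does not hold for whole columns, and no count test was run. Counts cover 770 genes, of which 750 are endogenous and 20 housekeeping, and 14 control probes.

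Values were taken to log2(value + 1) and tested with limma 3.58.1 (lmFit, eBayes) in R 4.3.3 over all 12 tumors in 4 groups, with Benjamini-Hochberg adjustment over the 646 genes tested. Figures were drawn with matplotlib 3.10.9. The methods name nSolver Advanced Analysis and a t-test tested on both sides. Nothing says more of the replicates than that they are separate mice of a group. Simulated tumors (646 genes, 200 changed, 10 runs, this comparison) gave 44.2, 68.6, 92.8 and 95.6% recovery of 1.5-, 2-, 3- and 4-fold changes and 4.76% false calls. Each simulated gene varied independently of the others, and the changes went up or down at random. In the real tumors genes moved together within a tumor and most calls were higher. The simulated rates therefore do not give the recovery or false calls of these data. With 3 tumors against 3, an exact permutation test on both sides cannot give a p below 0.1. Titles number the tumors 1 to 3 in each group. Deviations of same-numbered vehicle and combination tumors correlated at 0.47, -0.23 and -0.001, and the main fit did not take the numbers as pairs. That check left out the single-agent groups. In every group the median difference from the vehicle mean over all genes tested rose from tumor 1 to tumor 3. It was -0.14, 0.03 and 0.11 in vehicle and 0.24, 0.40 and 0.42 in the combination tumors. Whether the numbers mark something the groups share was not tested.

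Named genes were the 20 largest rises with groups apart, every gene called lower, the targets Tlr7 and Pdcd1, Fasl and Ido1, up to 3 called members and the 2 lowest members of each of 43 lists, all members of lists of 5 or fewer, and the outermost housekeeping genes. The text takes part of them, adds cell type markers, and names Cfd, Ifng, C8b, Lta, Ptprc, Cd4 and other genes outside the rule, chosen after their values were seen. The genes, lists and comparison were chosen with earlier results of these data known. Alternatives were other pseudocounts, filters, scalings, tests, adjustments, the replicate block and each tumor left out. For the gene lists they were chosen after seeing the data. Some genes of the panel are not reported here.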

Additional observations from a re-analysis of the deposited data

How the results depend on the processing

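Against 142 genes called, rescaling to the housekeeping genes gave 232, array weights 286 (261 higher and 25 lower), limma over the 6 tumors alone 92, no adjustment 244, Benjamini-Yekutieli adjustment 20 and the methods' t-test with Benjamini-Hochberg adjustment 4. Leaving out 1 tumor gave 59 to 174 genes, the lowest without vehicle tumor 1, and a median log2 fold change of 0.27 to 0.42. With the replicate block there were 250 calls (245 higher and 5 lower). Same-numbered vehicle and combination tumors did not deviate together in every pair, while the panel median rose from tumor 1 to tumor 3 in every group. A pseudocount of 10 gave 143 calls, no filter 139, a filter at a value of 50 gave 134 and background subtraction 103 (101 higher and 2 lower). Of the 89 named genes called higher, 19 lost the call after background subtraction, among them Ccl8 (limma adjusted p = 0.0566) and C8b (0.0961). The median turned negative under quantile normalization (-0.13) and centring on the median gene (-0.19). Log2 fold changes that turned with it were Epcam -0.18, Tpsab1 -0.14 and Tlr7 -0.031 under quantile normalization, and H2-D1 -0.24, Tpsab1 -0.29, Epcam -0.090, H2-K1 -0.038, Stat3 -0.037 and Lta -0.022 after centring, of which H2-K1, Stat3 and Lta had been called. Array weights turned Tpsab1 to -0.72 and Cma1 to -0.13. With 1 tumor left out Epcam ran from -0.16 to 1.10, Tpsab1 from -0.20 to 0.88 and S100a8 from -0.63 to 0.17. Of the 43 lists, the IFNγ-induced genes had 11 to 14 calls of 14 under every alternative for the lists but the methods' t-test, which left 3, and the type I interferon-induced genes 4 to 19 of 25, the lowest after centring, and 0 by that t-test. The planned edgeR test on counts recovered from the steps of the values was not run, since the recovery held for the genes but not for whole columns. The cause of these changes was not tested. With 3 tumors a group, 1.5-fold changes were often missed in the simulated tumors, and genes near the control probes carry little information.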

Other observations

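Some called genes belonged to none of the 43 lists. Ada, which encodes the adenosine-degrading enzyme adenosine deaminase, read 111, 132 and 138 in vehicle and 194, 272 and 231 in the combination tumors (0.86 ± 0.19, adjusted p = 0.0142, up to 0.059). Cd38, an ectoenzyme that consumes NAD, read 246, 269 and 271 against 515, 593 and 697 (1.19 ± 0.24, adjusted p = 0.00966), and Dpp4, a peptidase that trims chemokines, 29.1, 38.3 and 76.4 against 91.8, 161 and 89.6 (1.3 ± 0.39, adjusted p = 0.0384, up to 0.136). Tnfsf13b, the gene of the B cell survival factor BAFF, read 16.6, 28.97 and 32.7 against 41.2, 55.95 and 83.05 (1.17 ± 0.34, adjusted p = 0.0349, up to 0.135). Of the 104 endogenous genes that did not reach the filter, the 3 combination tumors lay above the 3 vehicle tumors in 15 and below them in 0, and none of these was tested.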
